A study of Mus musculus with 18 samples.

Results

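Splenocyte transcriptomes of tumour-bearing mice were compared between 2 treatment codes, P and I. The comparison uses 6 of the 18 libraries of the series, the 3 T_P libraries (replicates 26, 39 and 43) and the 3 T_I libraries (replicates 8, 12 and 27), and all 16635 of 56876 listed genes that reached 1 TPM (a length-corrected share of each library) in at least 3 of the 18 libraries. All 6 mice were Balb/c females that carried 4T1 cells, an established line of mouse breast carcinoma that stands in for triple-negative disease (TNBC in the labels), implanted orthotopically in the mammary pad on day 0. The series' design names 3 antibodies, against G-CSF, PD-1 or IgG, given intraperitoneally in PBS at 10 mg/kg on days 18, 21 and 24, with spleens taken on day 29. No label spells out the codes. Their initials match PD-1 for P, IgG for I and G-CSF for GC, but the treatment tag reads anti-PD-1 for every tumour-bearing library, T_I included, so the groups are called here by their codes. The other 12 libraries, 3 a group, are T_GC and the tumour-free groups N_I, N_P and N_GC, which carry the tag WT and for which the design gives no separate schedule. All 18 libraries enter the fit as 6 groups. The mice are numbered but nothing else ties a number to a cage, day or batch, so p-values rest on the spread between these libraries.

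PD-1, encoded by Pdcd1, is an inhibitory receptor that activated T cells, and some B and myeloid cells, put on their surface. Its ligands PD-L1 (Cd274) and PD-L2 (Pdcd1lg2) engage it and recruit the phosphatase SHP-2 (Ptpn11), which dampens signals from the antigen receptor and from CD28. Interferon-gamma, made by activated T and NK cells, drives transcription of Cd274, of guanylate-binding proteins and of antigen-presentation genes, in part through IRF1. The 4T1 tumour is known for secreting G-CSF and filling the spleen of its host with granulocytes.

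Most summed marker levels overlapped between the codes, while those of plasma cells and of tumour or epithelial cells did not. Over all genes tested, every T_P library lay above every T_I library in 5.48% and below in 6.44%. S100a8 and S100a9, the calprotectin genes of neutrophils, took 14.3% to 15.6% of TPM in the 6 libraries, and the summed TPM of 5 neutrophil markers ran from 144638 to 157906 in T_P and from 145373 to 152724 in T_I. The summed T cell markers (6 genes, 106.5 to 142.95 TPM in T_P and 130.9 to 138.5 in T_I), B cell markers (5 genes, 460.8 to 738 and 383 to 794) and red pulp macrophage markers (5 genes, 202 to 225 and 191 to 219) overlapped, as did the erythroid, NK cell, platelet and stromal sums. Plasma cell markers (4 genes) summed to 499 to 550.1 TPM in T_P and 423 to 453 in T_I, without overlap, and dendritic cell markers (4 genes) to 5.85 to 7.66 and 7.58 to 10.7, overlapping only between 7.58 and 7.66. The 5 markers of tumour or epithelial cells summed to 5.68 to 6.05 TPM in T_P and 4.55 to 5.63 in T_I, low in both but without overlap (4.02 to 6.17 in tumour-free spleens). Only 3 of these 5 markers were among the genes tested, and Krt14 was listed at 0 in all 6 libraries. The wider list of 16 tumour and epithelial genes overlapped in its sums (37.11, 22.75 and 68.11 TPM in T_I, 42.3, 48 and 57.38 in T_P). Of the 4 pancreatic markers Cpa1 and Pnlip were listed at 0 in all 6 libraries. Pearson's r between libraries on the log2(TPM + 1) scale was 0.9726 to 0.9747 within T_I, 0.9739 to 0.976 within T_P and 0.9698 to 0.9768 between them. TPM is a share of each library, and in bulk splenocytes fewer cells of a type and less RNA per cell cannot be told apart.

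Limma called 2 of 16635 genes between T_P and T_I (0.012%, adjusted p under 0.05 over all genes), and both were lower in T_P. Leaving out T_I replicate 8 raised the number to 5 and leaving out T_P replicate 26 to 4. At an unadjusted p under 0.05 there were 1010 genes (6.07%), of which 419 were higher in T_P (2.52%) and 591 lower (3.55%). With median-of-ratios scaling these were 662 higher (3.98%) and 633 lower (3.81%), without T_I replicate 12 they were 267 (1.61%) and 420 (2.52%), and without T_P replicate 43 they were 319 (1.92%) and 666 (4%), so that the background for the gene lists moves with the scaling and with single libraries. Every T_P library lay above every T_I library in 911 genes (5.48%) and below in 1071 (6.44%). The median difference over all genes was −0.0045 on the log2(TPM + 1) scale, which is the scale of every difference given here. For 14486 genes (87.1%) the 95% interval of the difference lay within a 2-fold change in either direction, and its median half-width was 0.32. With a pseudocount of 0.1 TPM the number was 12262. Adding 1 TPM shrinks the fold of genes near that level, so the limit of 2-fold is on TPM + 1 and not on TPM for such genes.

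**Figure D1:**
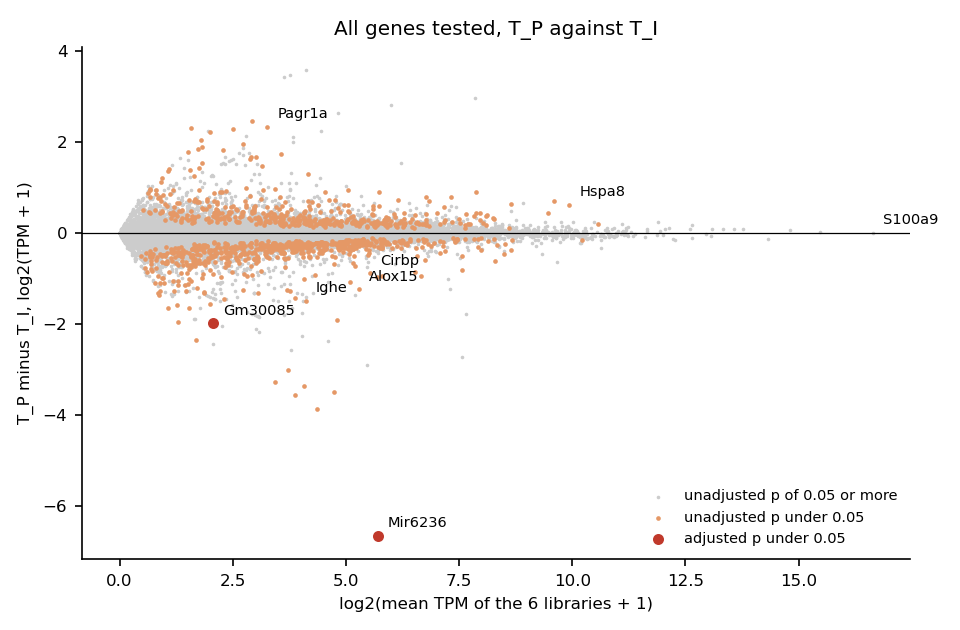
Difference between T_P and T_I on the log2(TPM + 1) scale (vertical) against the mean level of the 6 libraries (horizontal) for 16635 genes. The 2 genes with an adjusted p under 0.05, Mir6236 and Gm30085, lie below 0, and the 1010 genes with an unadjusted p under 0.05 spread on both sides of it.

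The called genes were both non-coding. Mir6236 (ENSMUSG00000098973), a microRNA gene, was at 97.2, 128 and 81.4 TPM in the T_I libraries and listed at 0 in all 3 T_P libraries, as in the 12 libraries of the other groups (limma, adjusted p = 2.45e-13). Groups listed wholly at 0 add no spread to the estimate shared by all groups, which lowers this p. In limma's fit of the 6 libraries alone the adjusted p was 0.000457. Mir6236 was listed above 0 in the code I tumour-bearing libraries and in no other library. Its mature product is shown because it names the transcript that separates the groups, with bases 2 to 8, the seed by which a microRNA pairs with its targets, in capitals (RefSeq, GRCm38.p6, chr9:110281353-110281371, plus strand).

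mmu-miR-6236: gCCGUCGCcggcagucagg

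The values are TPM of a short gene in libraries made with an mRNA kit, and they do not measure the mature microRNA. In the gene lists Mir6236 was placed with the structural and ribosomal RNA genes, where it was the 1 member called of 14 tested. Which RNA gave its reads was not tested. The RefSeq gene table places Mir6236 inside the long non-coding gene Gm39429, and no source used here states whether reads were counted by strand, so reads of overlapping genes cannot be told apart.

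Gm30085 (ENSMUSG00000109770), a predicted long non-coding gene, fell from 5.8, 6.55 and 4.57 TPM in T_I to 1.18, 0.47 and 0.44 TPM in T_P, a difference of −1.98 (95% interval −2.34 to −1.63, adjusted p = 5.31e-05). The groups did not overlap, and the lowest T_I library stood at more than 3 times the highest T_P library. In T_GC it was at 0.2, 0 and 0.17 TPM, and all 9 tumour-free libraries were listed at 0. The call was lost with a pseudocount of 0.1 TPM (adjusted p = 0.19) and in the fit of the 6 libraries alone (adjusted p = 0.251), and a filter of 5 TPM removed the gene. In the fit of all 18 libraries the 9 tumour-free libraries at 0 add no spread to the shared estimate.

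**Figure D2:**
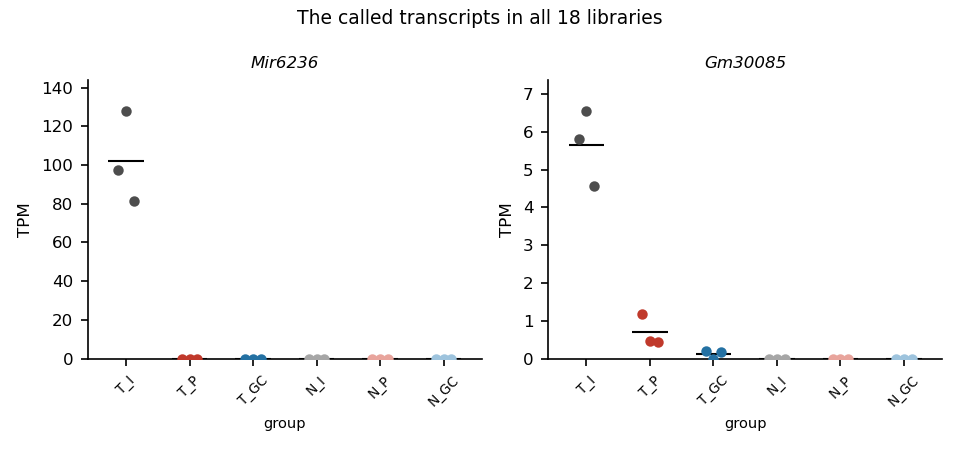
TPM of Mir6236 and Gm30085 in each of the 18 libraries by group (points) with the group mean (line). Mir6236 lies between 81.4 and 127.9 TPM in T_I and at 0 elsewhere, and Gm30085 lies between 4.57 and 6.55 TPM in T_I and at or below 1.18 TPM elsewhere.

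Including Mir6236, 6 genes were at 1 TPM or more in every T_I library and listed at 0 in every T_P library, and 1 had the reverse pattern. Apart from Mir6236 they are predicted genes (Gm16276, Gm29668, Gm42457), the T cell receptor segment Trav9d-4 and 2 assembled transcripts with no gene name, 1 of them the gene with the reverse pattern. None of these was called in the fit of all libraries, while Trav9d-4 and the transcript with the reverse pattern were called in the fit of the 6 libraries alone.

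Transcripts of the PD-1 axis itself were among the genes that separated the groups without passing the adjusted threshold. Pdcd1, the receptor, was at 0.73, 1.17 and 0.97 TPM in T_I and 1.45, 1.57 and 1.64 TPM in T_P, so that every T_P library lay above every T_I library, at low levels in both (0.39, 95% interval 0.045 to 0.73, unadjusted p = 0.0292, adjusted p = 0.775). Cd274, its main ligand, was at 6.34, 4.2 and 6.07 TPM in T_I and 7.28, 7.69 and 8.18 in T_P, again without overlap (0.43, 0.17 to 0.69, unadjusted p = 0.00284, adjusted p = 0.65). Pdcd1lg2, the second ligand, overlapped (0.88, 1.03 and 1.12 against 0.86, 1.31 and 1.35 TPM, 0.11, −0.16 to 0.37). Ptpn11, the phosphatase downstream, differed by 0.021 (−0.21 to 0.25). Of the 10 PD-1 pathway genes tested, 2 had an unadjusted p under 0.05, both higher (2.52% of all genes were), and the median difference was 0.095. All 10 intervals lay within 1 unit of 0 on the log2(TPM + 1) scale, which for genes near 1 TPM such as Pdcd1 does not bound the change in TPM at 2-fold.

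Tumour-free spleens share no library with this comparison. There Pdcd1 was at 4.03, 4.95 and 3.98 TPM in N_I and 5.89, 7.15 and 4.7 in N_P (0.37, adjusted p = 0.334), and the differences with and without the tumour differed by 0.022 (−0.46 to 0.51). Cd274 was at 26.2, 27.99 and 25.7 and 25.9, 23.5 and 27.8 TPM (−0.047, adjusted p = 0.915). The Cd274 difference was larger with the tumour than without it by 0.48 (95% interval 0.11 to 0.84, unadjusted p = 0.0134, adjusted p = 0.549 for the interaction of code P with tumour).

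None of the 21 other checkpoint receptors and ligands tested had an unadjusted p under 0.05, with 13 positive differences and a median of 0.093. Tigit, an inhibitory receptor of T and NK cells, was at 2.42, 5.02 and 2.87 TPM in T_I and 4.9, 4.9 and 4.61 in T_P (0.43, −0.0078 to 0.87), and the T_P libraries lay within the range of T_I. Ctla4, the inhibitory rival of CD28, differed by 0.22 (−0.21 to 0.66), Lag3 by 0.12 (−0.40 to 0.63) and Havcr2, which encodes TIM-3, by 0.095 (−0.31 to 0.50).

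The interferon-gamma response list had 8 of 27 members higher at an unadjusted p under 0.05 and none lower, against 2.52% of all genes higher. None passed the adjusted threshold, 21 differences were positive and the median was 0.17. The leading members were Gbp2b and Gbp2, neighbouring guanylate-binding protein genes whose products attack the vacuoles of intracellular pathogens. Gbp2b was at 14.9, 9.79 and 16.6 TPM in T_I and 20.5, 23.97 and 22.5 in T_P (0.69, 0.35 to 1.03, adjusted p = 0.511). Gbp2 was at 15.98, 11.4 and 19.6 and 23.9, 25.8 and 22.1 TPM (0.61, 0.31 to 0.91, adjusted p = 0.511). In both the highest T_I library, replicate 27, stood below the lowest T_P library, and T_I replicate 12 was the lowest of all 6.

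Irf1, the transcription factor of the response, was tight within each group, at 90.8, 86.5 and 87.05 TPM in T_I and 95.8, 105 and 106 in T_P (0.21, 0.084 to 0.33, adjusted p = 0.65). The immunity-related GTPases Irgm2 (15.2, 12.5 and 13.6 against 18.3, 17.8 and 16.9 TPM, 0.34, adjusted p = 0.65) and Irgm1 (19.9, 17.8 and 22.5 against 28.1, 23.3 and 23.6, 0.30, adjusted p = 0.725) did not overlap either. Gbp5, Icam1, the adhesion ligand of LFA-1, and Cd274 make up the rest of the 8. Ifng itself was low, at 0.37, 0.31 and 0.43 TPM in T_I and 0.91, 0.34 and 0.26 in T_P (0.11, −0.51 to 0.73), and the chemokines Cxcl9 (0.14, −0.30 to 0.58) and Cxcl10 (0.092, −0.44 to 0.63) overlapped as well. Leaving out single libraries moved the count of 8 to between 6 and 11.

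Without a tumour, 11 of the 27 members were higher in N_P at an unadjusted p under 0.05 (3.9% of all genes were) and none was called. Members higher at that threshold in both comparisons numbered 5, against 68 of all 16635 genes. Gbp2b was at 19.7, 24.1 and 23.7 TPM in N_I and 35.5, 33.1 and 34.5 in N_P (0.59, adjusted p = 0.119), and Gbp2 at 31.6, 35.5 and 33.1 and 46.1, 41.9 and 47.5 (0.42, adjusted p = 0.2). Ifng was at 1.63, 1.24 and 0.78 TPM in N_I and 3.7, 2.14 and 3.38 in N_P (0.87, unadjusted p = 0.00895, adjusted p = 0.198).

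**Figure D3:**
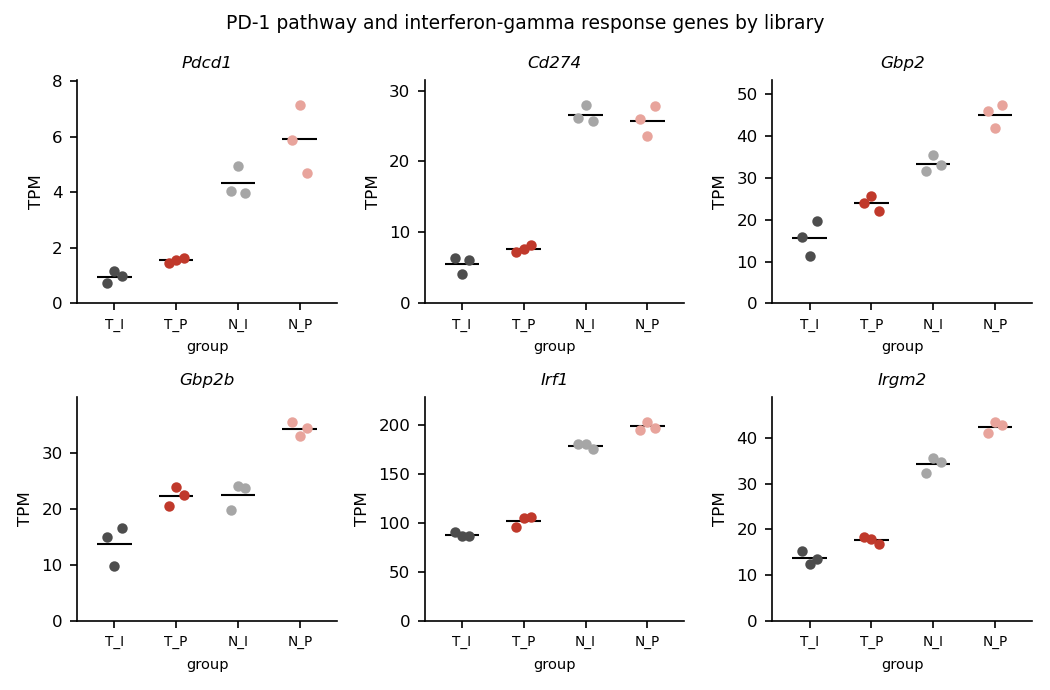
TPM of Pdcd1, Cd274, Gbp2, Gbp2b, Irf1 and Irgm2 in each T_I, T_P, N_I and N_P library (points) with the group mean (line). In each panel every T_P library lies above every T_I library, and for Cd274 the N_I and N_P libraries overlap.

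Promoter letters of Gbp2 and Gbp2b are shown because this neighbouring pair led the interferon-gamma list and shares an interferon-stimulated element (TTTCNNTTTC, or GAAANNGAAA on the other strand), in capitals. Each line is the 250 bases before the RefSeq start in GRCm38.p6, Gbp2 at chr3:142620413-142620662 and Gbp2b at chr3:142594597-142594846, both on the plus strand.

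Gbp2: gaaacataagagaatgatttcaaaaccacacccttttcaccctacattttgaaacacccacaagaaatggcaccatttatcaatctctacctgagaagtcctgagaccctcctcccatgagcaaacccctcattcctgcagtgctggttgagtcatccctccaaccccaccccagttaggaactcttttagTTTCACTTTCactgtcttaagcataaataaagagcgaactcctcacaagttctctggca

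Gbp2b: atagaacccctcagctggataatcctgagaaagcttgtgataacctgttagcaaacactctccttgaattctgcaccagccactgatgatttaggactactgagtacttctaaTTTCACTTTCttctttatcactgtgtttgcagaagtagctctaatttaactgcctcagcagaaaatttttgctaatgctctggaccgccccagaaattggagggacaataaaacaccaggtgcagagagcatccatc

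Both hold the same 10 letters, TTTCACTTTC, 49 bases before the start in Gbp2 and 127 bases before it in Gbp2b. In windows of this length the element was found in 3.52% of the 10455 tested genes with a promoter in the table, and in 12 of 18 such genes of the interferon-gamma list. A gene with several promoters counted if any of them held the element. Of the 8 members that were higher, all had a promoter in the table and 5 held the element (Gbp2, Gbp2b, Gbp5, Irgm1 and Irgm2). A match describes letters and is not evidence of binding.

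The type I interferon list had 1 of 47 members higher at an unadjusted p under 0.05 and none lower (2.52% and 3.55% of all genes). This was Zbp1, a sensor of Z-form nucleic acids, at 12.1, 12.3 and 15.2 TPM in T_I and 21.5, 18.01 and 17.3 in T_P without overlap (0.49, 0.23 to 0.75, adjusted p = 0.551). Of the other differences most were small and positive, 40 of 47 in all with a median of 0.20 (−0.0045 over all genes). Without a tumour the list's median was −0.22 (−0.041 over all genes), and 6 members were lower at that threshold (9.61% of all genes). By the interaction of code P with tumour, 12 of the 47 had a larger difference with the tumour at that threshold (4.44% of all genes). None had a smaller one (2.45% of all genes), and none was called. For MHC class I presentation 3 of 16 genes were higher at an unadjusted p under 0.05 (2.52% of all genes). B2m, the shared light chain, was at 1418, 1286 and 1555 TPM in T_I and 1608, 1554 and 1668 in T_P (0.19, 0.04 to 0.33), with T_I replicate 27 inside the T_P range. For class II 1 of 13 was lower at an unadjusted p under 0.05 (3.55% of all genes), H2-Oa, a modulator of peptide loading, and the median was −0.012.

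Heat-shock and chaperone genes were the list with the most members apart. At an unadjusted p under 0.05, 15 of 33 were higher in T_P (2.52% of all genes) and 1 lower (3.55%), 30 differences were positive, the median was 0.28, and none passed the adjusted threshold. In 13 members every T_P library lay above every T_I library (5.48% of all genes). Without T_I replicate 12, the lowest of the 6 libraries for Hsph1, Stip1 and Hspa5 among others, the count of higher members at that threshold was 8, and without T_I replicate 8 it was 22.

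Among cytosolic chaperones, Hspa8, the constitutive Hsc70, was at 934, 749 and 621 TPM in T_I and 1058, 1216 and 1237 in T_P (0.62, 0.33 to 0.91, adjusted p = 0.511). Hsph1, the Hsp110 nucleotide exchange factor of Hsp70, was at 31.6, 14.7 and 20.1 and 39.6, 41.7 and 43.2 TPM (0.94, 0.43 to 1.46, adjusted p = 0.565). Dnaja1, a J-domain partner of Hsp70, was at 139, 106 and 103 and 169.9, 167 and 176 TPM (0.57, 0.28 to 0.86, adjusted p = 0.512). In all 3 genes the T_P libraries lay close together and above T_I, whose own libraries differed more. The same held for Stip1, which hands clients from Hsp70 to Hsp90 (64.5, 46.1 and 59.2 against 74.99, 74.98 and 74.4 TPM, 0.41), for Chordc1, an Hsp90 cochaperone (30.2, 25.99 and 25.9 against 37.8, 36.7 and 39.7, 0.46), and for Cacybp (41.2, 32.02 and 33.8 against 44.9, 42.3 and 42.8, 0.28), with adjusted p of 0.79, 0.692 and 0.742. The stress-inducible Hsp70 genes Hspa1a and Hspa1b overlapped between the groups. Hspa1a was at 4.19, 10.2 and 2.01 TPM in T_I and 3.93, 7.5 and 6.57 in T_P (0.29, −0.65 to 1.22), and Hspa1b at 8.58, 10.9 and 5.15 and 10.3, 18.8 and 22.01 (0.96, −0.17 to 2.09). These near-identical genes can share reads, so their split is uncertain. Hsf1, the master regulator of the response, differed by −0.034 (−0.21 to 0.14).

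Chaperones of the endoplasmic reticulum were higher too. Hspa5, the reticulum Hsp70 known as BiP, was at 204, 157 and 159 TPM in T_I and 224, 237 and 226 in T_P (0.41, 0.20 to 0.62, adjusted p = 0.512). Manf, a secreted protein of the unfolded-protein response, was at 184, 150.4 and 145 and 202, 205 and 187 TPM (0.32, 0.11 to 0.52, adjusted p = 0.674). Hsp90b1, the reticulum Hsp90, was at 283, 206 and 227 and 301, 321 and 297 TPM (0.37, 0.098 to 0.65, adjusted p = 0.742). None of these 3 overlapped, and T_I replicate 8 was the T_I library nearest to T_P in each. With the disulphide isomerases Pdia4 (0.35) and Pdia6 (0.23) and with Creld2 (0.39), 6 reticulum genes were among the 15. Plasma cells carry much of this machinery, and the sum of their 4 markers was also higher in T_P, as given above. Most of that sum came from Jchain. Of 22 plasma cell genes only 2 were higher at an unadjusted p under 0.05 (2.52% of all genes were), Jchain and Creld2. The part of plasma cells in the difference of the reticulum genes was not tested.

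Cryab, a small heat-shock protein, was the member that was lower (3.05, 3.61 and 2.06 against 1.4, 1.54 and 1.36 TPM, −0.66, adjusted p = 0.768). Cirbp, the cold-inducible RNA-binding protein, is in no chaperone list and was lower as well, at 39.5, 74.3 and 64.9 TPM in T_I and 29.1, 30.6 and 31.9 in T_P (−0.89, −1.32 to −0.47, adjusted p = 0.511). It was called when T_I replicate 8, its lowest T_I library, was left out (adjusted p = 0.026).

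In tumour-free spleens the differences of the same list split by compartment, a division made after their values were seen. There 16 of the 33 members rose in N_P (adjusted p under 0.05, against 0.313% of all genes higher and 0.258% lower), with a median of 0.54 against −0.041 over all genes. The number of members called was 10 without any 1 of N_I replicates 92 and 96 and N_P replicates 17 and 29, and 0 in the fit of the N_P and N_I libraries alone, where 18 had an unadjusted p under 0.05. Of all 11 reticulum members tested, 10 had a positive difference with the tumour, with a median of 0.32, while the median without it was 0.03 and none was higher there at an unadjusted p under 0.05. Of the 22 other members, 20 had a positive difference with the tumour, with a median of 0.26, while the median without it was 0.89 and 16 were called. By the interaction of code P with tumour, 1 reticulum member was larger with the tumour at an unadjusted p under 0.05 and 15 of the 22 others were smaller, with a lowest adjusted p of 0.693 and 0.151, so that no difference between the comparisons was called for these members. Hsph1 was at 48.6, 45.6 and 58.8 TPM in N_I and rose to 203, 235 and 156 in N_P (1.92, adjusted p = 0.0015). Hspa1b rose from 1.98, 2.92 and 1.51 to 27.5, 23.4 and 14.2 TPM (2.83, adjusted p = 0.0308). Manf stayed within one range, at 117, 142 and 142 and 138, 136 and 129 TPM (0.013, adjusted p = 0.974).

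The interaction of code P with tumour tests whether the differences themselves differ. It called 3 of 16635 genes (0.018%), Mir6236, Gm30085 and Ahsa2. Mir6236 and Gm30085 were listed at 0 in every N_P and N_I library, so for them the interaction repeats the T_P minus T_I difference. Ahsa2, related to the Hsp90 activator Aha1, was at 26.1, 24.3 and 19.9 TPM in T_I and 24.2, 25.2 and 26.3 in T_P, and at 23.2, 28.8 and 30.8 in N_I and 69.3, 73.4 and 58.9 in N_P (interaction −1.15, 95% interval −1.51 to −0.78, adjusted p = 0.0469). The N_P libraries stood apart from the other 3 groups, and the interaction call was lost in 14 of 21 alternatives. Without N_I replicate 18 the interaction called 11 genes. At an unadjusted p under 0.05 a smaller difference with the tumour was found in 2.45% of all genes and a larger one in 4.44%, against the 15 and 1 of 33 chaperone list members given above. Dnajb1, the main inducible partner of Hsp70, had the lowest adjusted p among them, with 23.9, 21.6 and 19.1 and 25.1, 24.9 and 25.9 TPM with the tumour and 26.9, 27.2 and 35.5 and 76.4, 75.3 and 58.8 without it (interaction −0.98, −1.34 to −0.62, adjusted p = 0.151).

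**Figure D4:**
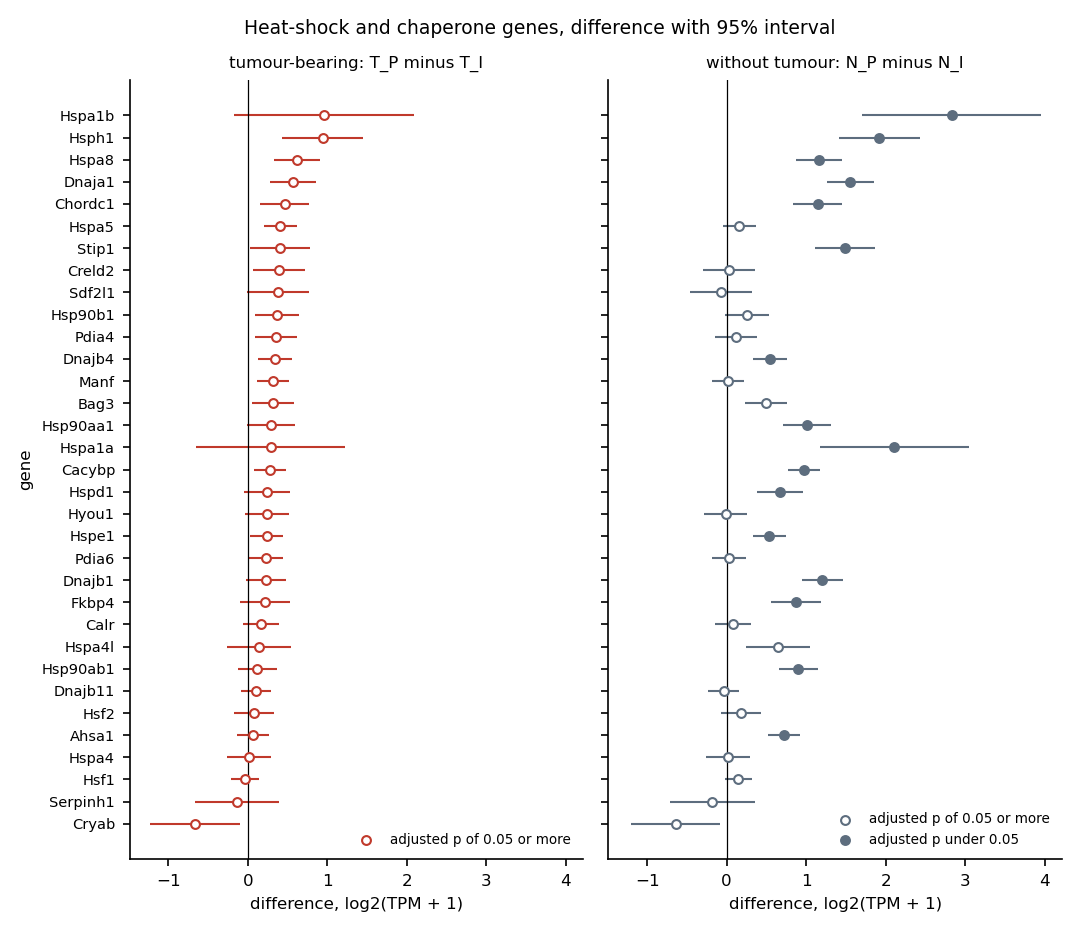
Difference with its 95% interval on the log2(TPM + 1) scale for the 33 heat-shock and chaperone genes tested, T_P minus T_I on the left and N_P minus N_I on the right (filled points, adjusted p under 0.05). On the left no point is filled and 30 of 33 lie above 0, and on the right 16 are filled and the reticulum genes such as Hspa5, Manf and Creld2 lie near 0.

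The Hsph1 promoter is shown because the gene had the largest difference among the members with an unadjusted p under 0.05. Hsph1 has 2 listed promoters, and the 1 shown was taken because it held a pair of heat-shock element units. The 250 bases before its start are given (RefSeq, GRCm38.p6, chr5:149636337-149636586, minus strand). The pair (GAANNTTC or TTCNNGAA, each of which reads the same on both strands) is in capitals, the letters to which heat-shock factors are known to bind when units are repeated.

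Hsph1: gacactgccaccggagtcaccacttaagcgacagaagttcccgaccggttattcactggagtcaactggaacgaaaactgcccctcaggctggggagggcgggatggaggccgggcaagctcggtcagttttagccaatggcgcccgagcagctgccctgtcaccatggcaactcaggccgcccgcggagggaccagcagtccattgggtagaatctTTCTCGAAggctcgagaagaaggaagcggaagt

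The match lies 25 bases before the start. A pair of units was found in 12.5% of the 10455 genes with a promoter in the table and in 8 of 26 of the chaperone list. Here a gene counted if any of its promoters held the letters. Of the 15 higher members 13 had a promoter in the table, and 4 held the pair (Dnaja1, Dnajb4, Hspe1 and Hsph1). A run of 3 units (GAANNTTCNNGAA or TTCNNGAANNTTC, which also counts as a pair) was found in 0.45% of all genes and in 2 of 26 list members, Hspd1 and Hspe1.

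Of 31 T cell identity genes, 5 were lower at an unadjusted p under 0.05 (3.55% of all genes) and none higher, 27 differences were negative, and the median was −0.12. All 31 intervals lay within 1 unit of 0, and none passed the adjusted threshold. Trac, the constant region of the T cell receptor alpha chain, was at 46.9, 53.4 and 52.5 TPM in T_I and 41.5, 40.5 and 31.1 in T_P (−0.43, −0.79 to −0.081, adjusted p = 0.763). Cd3e, of the CD3 complex, was at 22.1, 28.2 and 24.4 and 20.4, 16.3 and 22.04 TPM (−0.33, −0.65 to −0.017), and Cd247, its zeta chain, at 17.03, 17.1 and 16.5 and 14.9, 11.7 and 14.8 (−0.28, −0.50 to −0.059). These 3 did not overlap. Il7r, the receptor of the survival cytokine IL-7, differed by −0.45 and Ubash3a, a dampener of receptor signalling, by −0.24. The coreceptors Cd4 (−0.047, −0.37 to 0.28) and Cd8a (−0.17, −0.54 to 0.20) overlapped. Leaving out a single library brought the count of 5 down to between 1 and 4, the lowest without T_I replicate 12 and the next, 2, without T_P replicate 39. In tumour-free spleens the list's median was 0.15 (−0.041 over all genes) and 5 members were higher at an unadjusted p under 0.05 (3.9% of all genes). By the interaction of code P with tumour, 5 members had a smaller difference with the tumour at that threshold (2.45% of all genes), and none was called.

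Among activation and exhaustion genes 1 of 21 was higher and 2 were lower at an unadjusted p under 0.05 (2.52% and 3.55% of all genes), while 17 differences were positive and the median was 0.15. Tcf7, which encodes the TCF-1 of naive and stem-like T cells, was at 24.7, 28.5 and 22.8 TPM in T_I and 21.9, 15.6 and 21.7 in T_P (−0.35, adjusted p = 0.821). Id2, an inhibitor of E proteins in effector and innate lymphocytes, was at 37.2, 76.3 and 43.9 and 39.03, 30.9 and 36.7 (−0.49, adjusted p = 0.79), where T_I replicate 12 was the highest library. Nr4a1, an early product of antigen-receptor signalling, was at 9.71, 8.47 and 10.6 and 10.5, 11.4 and 16.5 (0.37, adjusted p = 0.821). Of 23 cytotoxic and NK genes only Gzmk, a granzyme of memory-type CD8 T cells, reached an unadjusted p under 0.05, and it was lower (3.55% of all genes were). It was at 0.88, 0.7 and 1.11 TPM in T_I and 0.84, 0.08 and 0.32 in T_P. Gzmb (4.25, 4.53 and 6.21 against 5.59, 5.44 and 6.15 TPM, 0.18, −0.32 to 0.67) and Prf1, perforin (3.93, 3.59 and 4.01 against 4.6, 3.68 and 4.2, 0.089, −0.17 to 0.35), overlapped.

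Transcripts of the rarer granulocytes separated by gene. Of 23 mast cell, basophil and eosinophil genes 3 were higher and 4 lower at an unadjusted p under 0.05 (2.52% and 3.55% of all genes), and none was called. Alox15, the 12/15-lipoxygenase abundant in eosinophils, was at 43.3, 60.8 and 56.9 TPM in T_I and 16.8, 26.8 and 23.6 in T_P (−1.23, −1.76 to −0.71, adjusted p = 0.511). Ear1 and Ear2, eosinophil-associated ribonucleases, were at 216, 247 and 249 and 198, 239 and 224 TPM in T_I against 89.98, 175 and 152 and 110.3, 191 and 175 in T_P (−0.82 and −0.50). Ccr3, the eotaxin receptor, was at 11.99, 13.9 and 15.7 and 9.8, 7.94 and 9.44 TPM (−0.56, −1.02 to −0.10). Every T_P library lay below every T_I library in all 4. Members of the Ear family are near-identical, so the split of reads between Ear1 and Ear2 is uncertain. Granule proteins of the same cell did not follow. Prg2, major basic protein, was at 473, 516 and 482 TPM in T_I and 348, 645 and 571 in T_P (0.041, −0.68 to 0.77), and Epx, eosinophil peroxidase, at 39.8, 31.5 and 38.7 and 40.01, 80.8 and 60.6 (0.66, −0.071 to 1.38).

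Basophil genes lay the other way. Mcpt8, the basophil protease, was at 96.6, 134 and 117 TPM in T_I and 169.5, 236 and 197 in T_P (0.79, 0.047 to 1.53, adjusted p = 0.798). Ms4a2, the beta chain of the high-affinity IgE receptor, was at 7.41, 10.4 and 8.09 and 13.3, 14.6 and 12.1 (0.58, 0.072 to 1.10), and Cd200r3 at 5.5, 5.41 and 5.32 and 6.48, 12.3 and 11.6 (0.75, 0.12 to 1.38). No T_P library of these 3 genes fell within the T_I range. The alpha chain of the receptor, Fcer1a, also did not overlap (7.32, 7.99 and 8.52 against 12.1, 10.3 and 10.1 TPM, unadjusted p = 0.0821). Ighe, the constant region of IgE, was lower, at 17.9, 22.6 and 31.9 TPM in T_I and 12.4, 8.61 and 4.14 in T_P (−1.49, −2.30 to −0.68, adjusted p = 0.565). In tumour-free spleens Mcpt8 was at 2.76, 11.4 and 8.25 and 1.8, 4.09 and 3.91 TPM (−0.88), so its differences had opposite signs (interaction 1.66, 0.62 to 2.71, adjusted p = 0.452), while Alox15 was at 6.57, 6.53 and 5.08 and 2.75, 2.95 and 4.15 (−0.73, interaction −0.51, −1.25 to 0.24).

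**Figure D5:**
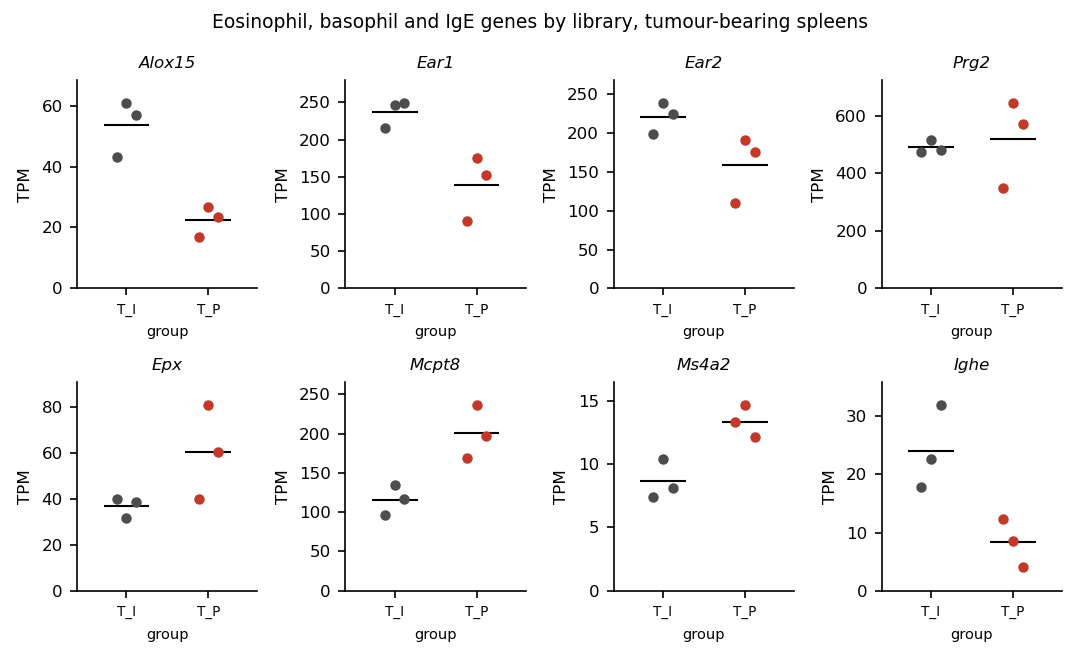
TPM of 8 eosinophil, basophil and IgE genes in each T_I and T_P library (points) with the group mean (line). Alox15, Ear1, Ear2 and Ighe lie lower in every T_P library, Mcpt8 and Ms4a2 higher, Epx is higher in T_P with the lowest T_P library (40.01 TPM) just above the highest T_I library (39.82), and Prg2 overlaps.

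Jchain, the joining chain of IgM and IgA made by plasma cells, was at 272, 279 and 249.8 TPM in T_I and 343, 359 and 305 in T_P without overlap (0.33, 0.063 to 0.59, adjusted p = 0.763). In tumour-free spleens it was at 799.7, 942 and 993 in N_I and 572, 711 and 598 in N_P (−0.54, adjusted p = 0.0734), and the differences differed by 0.87 (0.49 to 1.24, unadjusted p = 1.90e-04, adjusted p = 0.264). Of 22 plasma cell genes 2 were higher at an unadjusted p under 0.05 (2.52% of all genes were), Jchain and Creld2. Creld2 is also counted in the chaperone list.

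The abundant cell types gave no gene at an unadjusted p under 0.05 (2.52% of all genes were higher and 3.55% lower) in the lists of B cells (30 genes), erythroid genes (36), red pulp macrophages (22), proliferation (43) and the 3 neutrophil lists (14 primary granule, 22 secondary and tertiary granule and 27 mature neutrophil genes). The summed TPM of the secondary and tertiary granule list was still lower in every T_P library (60499.9, 58495.3 and 56993.9) than in every T_I library (63340.8, 61692.5 and 60867.2). The median difference of its members was −0.045. The sums of the primary granule and mature neutrophil lists overlapped. S100a9 was at 105549.98, 99018 and 101055 TPM in T_I and 107305, 100616 and 98165 in T_P, overlapping, with a difference of 0.00 (−0.79 to 0.79). Elane, neutrophil elastase, was at 1385, 1286 and 1096 and 1092, 1183 and 1009 TPM (−0.19, −1.08 to 0.69), Mki67, a marker of cycling cells, at 138, 121 and 114 and 128, 144 and 115 (0.055, −0.56 to 0.67), and Cd79a, of the B cell receptor, at 173, 141 and 315 and 161, 199 and 265 (0.047, −0.46 to 0.56). Their intervals reach past 0.5 in size, so by this fit a moderate difference was not detectable. The intervals use the spread shared by all 6 groups, so part of their width can come from groups not compared here. Together S100a8 and S100a9 took 14.3% to 15.6% of TPM in the T_P and T_I libraries. In N_I they took 0.158% to 0.484% and in T_GC 2.61% to 4.39%.

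Genes of platelets and of the spleen's stroma were lower in small numbers. Of 20 platelet genes 3 were lower at an unadjusted p under 0.05 (3.55% of all genes were), Thbs1, thrombospondin (2.27, 3.44 and 1.74 against 1.57, 0.85 and 0.89 TPM, −0.72), Gp1bb, a receptor for von Willebrand factor (2.67, 5.01 and 2.11 against 1.6, 1.48 and 1.64, −0.67), and Tubb1, the platelet tubulin (3.7, 2.69 and 2.87 against 1.68, 2.14 and 2.52, −0.39). Of 12 stromal and endothelial genes 2 were, Sparc, a matrix protein (2.95, 1.92 and 3.46 against 1.67, 1.5 and 1.37 TPM, −0.57), and Stab2, a scavenger receptor of sinus endothelium (−0.30). Ccl21a, the chemokine that guides T cells into the white pulp, was at 3.06, 2 and 1.98 TPM in T_I and 0.49, 1.21 and 0.73 in T_P (−0.89, −1.48 to −0.31, adjusted p = 0.691), and its near-identical gene copies may share reads. All of these but Stab2 were without overlap, and none was called. Of 32 chemokine and cytokine genes tested, 3 were higher and 1 lower at an unadjusted p under 0.05 (2.52% and 3.55% of all genes). The summed TPM of that list was higher in every T_P library (1376.22, 1400.29 and 1471.11) than in every T_I library (1305.08, 1151.82 and 1285.64).

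Of 29 immediate-early genes 5 were higher and 2 lower at an unadjusted p under 0.05 (2.52% and 3.55% of all genes). Ier5, which acts on heat-shock factor, was at 44.9, 33.2 and 42.03 TPM in T_I and 51, 53.1 and 54.97 in T_P (0.41, 0.18 to 0.63, adjusted p = 0.575), and Btg2, an antiproliferative gene, at 64.9, 49 and 63.2 and 69.01, 71.9 and 83.4 (0.34, 0.097 to 0.59). Dusp1, a phosphatase that ends MAP kinase signals, was lower at 31.7, 113 and 64.2 and 29.2, 29.2 and 33.8 TPM (−0.98, −1.85 to −0.11), and Nfkbia, the inhibitor of NF-kappa-B, at 116, 217 and 136 and 100.4, 104 and 130.1 (−0.44, −0.79 to −0.093). In both of the lower genes T_I replicate 12 was the highest library, and without it the differences were −0.54 and −0.18. Of the myeloid suppressor genes Arg1, arginase, rested on the same library (1.16, 13.1 and 0.42 against 0.41, 0.26 and 0.64 TPM), differing by −0.29 without it. Prok2, a neutrophil-made chemoattractant, was at 119, 51.8 and 92.9 and 106, 163 and 146 TPM (0.71, 0.12 to 1.29), where T_I replicate 12 was the lowest.

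The remaining genes with the largest separated differences, at an unadjusted p under 0.01 and at least 5 TPM in the higher group, had varied roles. Pagr1a, a partner of the MLL3/4 histone methyltransferase complexes, was the largest, at 2.57, 0.76 and 2.79 TPM in T_I and 6.57, 21.8 and 16.7 in T_P (2.34, 1.42 to 3.25, adjusted p = 0.334). It was called without T_P replicate 26, the lowest of its group (adjusted p = 0.033). Nupr1, a stress-induced nuclear protein, was at 23.3, 15.4 and 14.3 and 29.2, 28.5 and 30.4 TPM (0.73, 0.37 to 1.09, adjusted p = 0.511). Bloc1s5, of a complex that forms lysosome-related organelles, was at 2.13, 2.98 and 1.97 and 5.75, 4.22 and 5.96 (0.91). Fscn1, the actin bundler of mature dendritic cells, was at 4.41, 3.83 and 5.35 and 6.68, 7.21 and 8.43 (0.61). Bcl2a1d, of an antiapoptotic family with near-identical copies whose reads may be split, was at 9.56, 7.67 and 7.95 and 12.1, 11 and 14.2 (0.51). Ppm1k, a mitochondrial phosphatase of branched-chain amino acid breakdown (0.58), and Thap6 (0.49) complete the higher genes.

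On the lower side Hilpda, a hypoxia-inducible inhibitor of lipolysis, was at 4.68, 7.63 and 4.29 TPM in T_I and 2.67, 3.67 and 2.48 in T_P (−0.71, −1.21 to −0.20, adjusted p = 0.742). Pdk1, the pyruvate dehydrogenase kinase that hypoxia induces, was the 1 of 21 glycolysis genes lower at an unadjusted p under 0.05 (3.55% of all genes were). It was at 5.21, 3.75 and 5.16 TPM in T_I and 3.55, 2.98 and 3.44 in T_P (−0.39). Trdmt1, a transfer RNA methyltransferase, was at 6.96, 11.4 and 9.02 and 5.36, 5.82 and 5.34 (−0.61). Mtbp, a partner of the Mdm2 and replication machinery, was at 14.6, 12.8 and 14.5 and 9.19, 10.5 and 7.6 (−0.58). Rps4l, a copy of the ribosomal protein gene Rps4x, was at 8.05, 8.35 and 9.46 and 7.96, 3.41 and 2.33, where T_P replicate 26 lay just below the T_I range and the other T_P libraries far below. H2ac19 (−0.65), a histone gene of a family of near-identical copies, Fahd2a (−0.60), Iqce (−0.56) and Ankrd50 (−0.54) were the others. Rn18s-rs5, a ribosomal RNA gene, was higher in T_P (551, 547 and 715 against 865, 727 and 838 TPM, 0.43, adjusted p = 0.742), and how ribosomal reads moved other genes' TPM was not tested.

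Across all genes, 68 were higher and 126 lower at an unadjusted p under 0.05 both with and without the tumour, and 42 differed in opposite directions. Of the 52 genes that rose in N_P against N_I, 45 had a positive difference in T_P against T_I and 16 an unadjusted p under 0.05 there, and of the 43 that fell, 30 had a negative difference and 8 an unadjusted p under 0.05. Over all genes the T_P against T_I difference was positive in 48.3% and negative in 51.3%, with 2.52% higher and 3.55% lower at that threshold, and without the tumour 3.9% were higher and 9.61% lower.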

How the data were processed

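Splenocyte RNA was sequenced in 18 libraries, 6 groups of 3, with groups taken from the sample titles. The authors deposited 1 table of TPM per gene, trimmed with fastp and quantified with RSEM on GRCm39 per the submitters' processing notes; versions, annotation and strand setting are not given in the sources used here. TPM keep no depth, so the depth per library is unknown and no counting interval is given. The number of libraries limits precision: 3 a group, and 12 residual degrees of freedom. From the deposited TPM, log2(TPM + 1) of genes reaching 1 TPM in 3 or more libraries was fitted with limma 3.58.1 (trend, R 4.3.3) as 6 group means, with Benjamini-Hochberg adjustment over all 16635 genes, two-sided, called at 0.05. The contrasts were T_P minus T_I, N_P minus N_I and their interaction, with 1 estimate of spread per gene shared by all 3. The procedure was tested on simulated data in which all groups of a gene had the same spread. Such data do not cover genes with whole groups listed at 0, such as Mir6236 and Gm30085. The 37 gene lists and the members were chosen with earlier results of these data known, and no list was tested as a set. List members numbered 757 tested of 887.

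Genes named were those called, the 12 largest differences in each direction among genes with unadjusted p under 0.01, a mean of at least 5 TPM and no overlap (predicted genes, clones, pseudogenes and receptor segments left out), up to 3 members of each list with the smallest p, and a fixed set of PD-1, interferon, chaperone and marker genes. Outside it, Ahsa2, Cacybp, Cd200r3, Cd79a, Chordc1, Cryab, Ctla4, Dnajb1, Dusp1, Ear1, Epx, Fcer1a, Havcr2, Hsf1, Hsp90b1, Il7r, Irgm1, Irgm2, Lag3, Manf, Mcpt8, Nfkbia, Pdia4, Pdia6, Prg2, Ptpn11, Stip1 and the unnumbered list members were chosen after their values were seen. Sequences came from RefSeq tables of GRCm38.p6. Alternatives tried were a pseudocount of 0.1, a 5 TPM filter or none, scaling by median of ratios, TPM rescaled after removal of abundant classes (globins, antibody and T cell receptor genes, ribosomal proteins, mitochondrial transcripts), fits of fewer libraries, limma without trend or with robust moderation, and each compared library left out in turn.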

Additional observations from a re-analysis of the deposited data

Results flagged for a closer look

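Of all genes tested, limma's test of the interaction, which sets T_P against T_I beside N_P against N_I, called 3. Mir6236 had an adjusted p of 3.66e-11, being above 0 in the T_I libraries and listed at 0 in T_P, N_P and N_I. Gm30085 had an adjusted p of 0.0045, being lower in T_P than in T_I and listed at 0 in N_P and N_I. For Mir6236 and Gm30085 the N_P minus N_I difference was 0. Their interaction is thus the T_P minus T_I difference already called, and cannot show whether a code difference depends on the tumour. Ahsa2 had an adjusted p of 0.0469, being higher in N_P than in N_I with overlapping T_P and T_I. Its interaction lay between −1.25 and −1.03 over 21 alternatives, with an adjusted p of 0.0179 to 0.216, and 7 of the 21 kept the call. Groups of 3 were not tested for single libraries that stand apart.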

How the results depend on the processing

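Between T_P and T_I limma called 2 genes, against 1 with a pseudocount of 0.1 TPM, 4 with no filter, 1 with a filter of 5 TPM and 3 in the fit of the 6 libraries alone. Leaving out each library gave 2 to 5. Mir6236 was called under all 15 alternatives. Between N_P and N_I 95 genes were called, 2 in the fit of those libraries alone and 22 to 250 when each library was left out. The interaction called 3 genes, 1 with a pseudocount of 0.1 TPM, 1 in the fit of the 4 groups alone, which is also the fit without the GC libraries (1), and 2 to 11 when each library was left out. Genes whose interval excludes a 2-fold difference numbered 12262 with a pseudocount of 0.1 TPM, 28790 with no filter, which tests more genes, and 13905 to 14185 when each library was left out. When each library was left out, the difference in Hspa1a ran from −0.158 (without T_I replicate 27) to 0.787 and that in Ifng from −0.0754 (without T_P replicate 26) to 0.225, and the cause was not tested. The differences in the other genes tried kept their sign. No paired analysis was possible because the groups share no replicate number. With 3 libraries a group and no read counts, differences under about 0.32, the median half-width of the intervals, were mostly not detectable at an unadjusted p under 0.05. The limit for a call at an adjusted p under 0.05 was higher. Differences of 0.94 (Hsph1), −1.23 (Alox15), −1.49 (Ighe) and 2.34 (Pagr1a) were not called. When a group of 3 lost a library, the rest were assumed to vary like the other groups.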
